A study of Mus musculus with 6 samples.

Results

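The genes described here encode histones, the proteins around which DNA is wound. They were taken as every probe set of the array whose platform annotation gives a single gene symbol that follows set name patterns of histone genes, with no condition on signal. Histones named otherwise, such as Cenpa, fall outside this rule. The rule gave 25 genes of 18193 with a probe set of their own, and 36 probe sets of the 45101 on the array. Of these, 16 probe sets for 11 genes belong to clustered histone genes and 20 probe sets for 14 genes to replacement histones. The clustered genes were told apart by an older name of the Hist1 to Hist4 series among their names in the gene table.

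The 6 arrays hold RNA from NIH3T3, a mouse fibroblast line that divides without limit, and all come from a single clone (clone M) that carries multiple lacO insertions, the DNA element to which the lac repressor binds. In the 3 untethered samples the insertion lay centrally in the nucleus, and in the 3 tethered samples it lay at the nuclear periphery. All cells carried the insertions, were grown in DMEM with 10% serum and were collected at about 80% confluency. The labels number the arrays 1 to 3 in each group and name no tethering protein, and they do not say that arrays of a group came from separate cultures, so p-values reflect the spread among these samples alone, and that spread may be technical. Values in other clones were not analysed here.

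Clustered histone genes lie together in a few large groups in the genome. Most are transcribed in S phase, when new DNA has to be packed, and most of their messages end in a stem-loop in place of a poly(A) tail. The stem-loop is bound by SLBP, which is needed for processing and translation of the message. Some clustered genes, H1f2 among them, can also give polyadenylated messages. Replacement histones such as H2A.Z and H3.3 are made throughout the cell cycle from ordinary polyadenylated messages and are placed into chromatin outside replication. They mark promoters, active genes or DNA breaks.

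The medians of the arrays lay between 482.4 and 490.9. In a principal component analysis the leading axis, with 53.3% of the variance, placed both arrays numbered 1 at -35.1 (untethered) and -43.3 (tethered), with the other arrays between 5.2 and 30.8. All 10 fibroblast markers had a signal above the median probe set, 8 of them above the 90th percentile. Their summed intensity ran from 98602 to 108049 in untethered and from 82447 to 110983 in tethered arrays. Of 5 epithelial markers 4 lay below the median probe set, with Epcam as the exception, and so did 3 of 5 macrophage, 2 of 5 endothelial and 4 of 6 testis germ cell markers. The number of arrays limits the precision of every value below.

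The sequences upstream of the 6 genes whose probe sets spanned most between the replicate numbers are given first, because the widest-spanning probe sets of H1f2, H2bc22, H2ac19 and H2aw were highest, and those of H2aj and H2az1 lowest, in the mean of the arrays numbered 1. Each run holds the 150 bases before the start of the gene, 5′ to 3′ on the gene's strand, from RefSeq's annotation of GRCm38.p6, with every CCAAT and every octamer ATTTGCAT (either strand) in capitals. The positions are chr13:23738657-23738806 on the plus strand for H1f2, chr13:21787338-21787487 on the plus strand for H2bc22, chr3:96240375-96240524 on the minus strand for H2ac19, chr11:58954535-58954684 on the plus strand for H2aw, chr6:136808098-136808247 on the plus strand for H2aj and chr3:137864337-137864486 on the plus strand for H2az1.

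H1f2: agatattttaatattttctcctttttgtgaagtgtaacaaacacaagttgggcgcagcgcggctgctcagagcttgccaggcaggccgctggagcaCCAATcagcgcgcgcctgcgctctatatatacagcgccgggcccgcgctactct
H2bc22: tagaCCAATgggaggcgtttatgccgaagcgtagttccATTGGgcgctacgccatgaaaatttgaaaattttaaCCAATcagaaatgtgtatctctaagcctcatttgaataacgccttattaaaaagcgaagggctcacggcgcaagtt
H2ac19: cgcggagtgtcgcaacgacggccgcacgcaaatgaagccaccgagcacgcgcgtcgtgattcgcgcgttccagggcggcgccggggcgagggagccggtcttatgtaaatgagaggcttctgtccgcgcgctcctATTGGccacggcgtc
H2aw: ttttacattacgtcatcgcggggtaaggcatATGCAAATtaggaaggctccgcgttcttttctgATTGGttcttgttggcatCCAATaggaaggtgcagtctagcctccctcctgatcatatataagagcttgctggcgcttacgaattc
H2aj: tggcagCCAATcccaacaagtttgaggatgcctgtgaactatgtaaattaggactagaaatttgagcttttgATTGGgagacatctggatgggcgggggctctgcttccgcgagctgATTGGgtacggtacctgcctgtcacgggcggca
H2az1: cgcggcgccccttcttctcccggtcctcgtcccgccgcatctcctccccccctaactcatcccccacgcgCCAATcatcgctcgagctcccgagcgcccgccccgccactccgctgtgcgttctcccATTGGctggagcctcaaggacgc

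The CCAAT box, which is bound by the NF-Y factor, was present in the 250 bases upstream of 9 of 9 clustered and 9 of 13 replacement genes with a sequence, against 33.8% of 32851 windows of the same length. The TATA box letters TATAAA were found for 4 of 9 clustered and 2 of 13 replacement genes (12.4% of all windows). The octamer ATTTGCAT, which is bound by Oct1 in H2B promoters, was found for 2 of 9 clustered and 1 of 13 replacement genes (1.6% of all windows). The clustered genes with the octamer were H2aw and H2bc18. Both strands were searched for all 3, and a match is a description of the letters only.

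The first comparison asked whether histone messages, as read by these arrays, differ between cells with the insertion at the periphery and in the centre. Whether the labelling took up messages without a poly(A) tail was not tested. The values of clustered genes may therefore not hold all of their messages. The widest differences lay in probe sets of the clustered genes H1f2, H2aw and H2bc22, all lower on average in tethered arrays. The brightest probe sets of H1f2 and H2aw did not share this, with -0.02 and 0.02 on the log2 scale. None of the 36 probe sets passed the adjusted threshold. The replacement histones lay close to 0, from -0.28 for H3f3b to 0.23 for a dim probe set of H1f7 on the log2 scale. With limma, 0 of 36 histone probe sets had a Benjamini-Hochberg adjusted p under 0.05, as had 0 of all 45037 probe sets tested (0%). The smallest adjusted p of a histone probe set was 0.989. At an unadjusted p under 0.05 there was 1 of 36, a probe set of H2aw, beside 1782 of 45037 (3.96%).

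H1f2 encodes H1.2, a linker histone that binds DNA where it enters and leaves the nucleosome. Its first probe set read 5891, 2141 and 672 in untethered replicates 1, 2 and 3 and 1313, 663 and 447 in tethered replicates 1, 2 and 3. The tethered array was thus lower than the untethered array of the same number each time, with log2 differences of -2.17, -1.69 and -0.59 for numbers 1, 2 and 3. The groups still overlapped, since untethered replicate 3 lay below tethered replicate 1. On the log2 scale the means were 10.99 ± 1.57 in untethered and 9.51 ± 0.79 in tethered cells (SD, n = 3 each), a difference of -1.48 with a standard error of 0.82 (limma adjusted p = 0.989).

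The second H1f2 probe set read 5357, 2473 and 641 in untethered and 1481, 545 and 418 in tethered arrays, with a difference of -1.55 (SE 0.85). The third, the brightest of H1f2 by mean log2 (10.46, against 10.25 and 10.22 for the first and second), did not share this pattern. It read 1155, 1923 and 1278 in untethered and 1090, 1269 and 1956 in tethered arrays, with a difference of -0.02 (SE 0.28). The probe sets of H1f2 therefore disagreed, and no source used here says which transcript each of them reads. Without untethered replicate 1 the first probe set stood at -0.72, and without untethered replicate 3 at -2.28. Without both arrays numbered 1 the first and second stood at -1.14 (SE 0.57) and -1.40 (SE 0.64).

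The other H1 genes of the cluster were H1f4, which encodes the linker histone H1.4, and H1f6, the linker histone of spermatocytes. H1f4 was among the dimmest members, between 47.6 and 74.7 on the 6 arrays, with a difference of -0.30 (SE 0.16). H1f6 read 1267 to 1355 in untethered and 1325 to 1424 in tethered arrays. It was higher in the tethered array of each number, by 0.07 on average (SE 0.062), although 4 of the 6 germ cell markers lay below the median probe set.

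Of the clustered H2A genes, H2aw encodes a core histone of the small Hist3 cluster. Its dimmer probe set read 649, 405 and 318 in untethered and 355, 216 and 210 in tethered arrays. It was lower in the tethered array of each number, by 0.87, 0.91 and 0.60 in size on the log2 scale, and the groups overlapped because tethered replicate 1 lay above untethered replicate 3. The difference was -0.79 (SE 0.32; limma unadjusted p = 0.0455, adjusted p = 0.989). It was -0.51 without untethered replicate 1 and -0.76 (SE 0.14) without both arrays numbered 1, where the adjusted p was 0.713. The brighter H2aw probe set, between 864 and 961 on all arrays, gave 0.02 (SE 0.069). The dimmer one is of a type that several transcripts can share, so its signal may hold related messages.

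H2ac19 encodes a core H2A of the Hist2 cluster. Its dimmer probe set read 1548, 798 and 527 in untethered and 727, 711 and 523 in tethered arrays. Untethered replicate 1 stood above the other 5 arrays, which lay between 523 and 798. The difference was -0.42 (SE 0.39), and -0.09 (SE 0.25) without both arrays numbered 1. The brighter probe set gave -0.25 (SE 0.22) and is of a type that can take up related sequences.

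H2bc22 encodes a core H2B. It read 3225, 1606 and 663 in untethered and 1722, 1204 and 489 in tethered arrays. The tethered array was lower for each number, by 1.87-fold, 1.33-fold and 1.35-fold, while the spread between numbers was wider than the difference between the groups. The difference was -0.59 (SE 0.69; limma adjusted p = 0.989), and it was -0.04 without untethered replicate 1 and -0.07 without tethered replicate 3. H2B genes are near-identical in their coding parts, and the probe set is of a type that can take up related sequences, so its signal may hold other H2B messages. H2bc18 and H2bc21, of the Hist2 cluster, lay between 438 and 513 and, on its brighter probe set, between 341 and 422. Their differences were -0.06 (SE 0.078) and 0.06 (SE 0.094).

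The clustered H3 genes with a probe set of their own were H3c4, H3c7 and H3c11. Their intensities ran from 352 to 472, from 204 to 269 and from 623 to 682 over the 6 arrays. The differences were -0.04, -0.04 and 0.06, each within its standard error (0.12, 0.11 and 0.060). No H4 gene had a probe set of its own.

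Counted by probe set, 12 of 16 clustered values lay below 0, with a median of -0.12, while 51.2% of all probe sets lay below 0 with a median of -0.003. Counted by gene, with the brightest probe set standing for each, 7 of 11 lay below 0 and the median was -0.04. The gene median was 0.05 without untethered replicate 1. No histone probe set had groups that did not overlap, 0 of 36 against 9.68% of all probe sets. Of the 36, 8 were lower in the tethered array of all 3 numbers (15.1% of all probe sets were) and 4 were higher in all 3 (15.5%). Of the 8, 7 were clustered, from H1f2 (the first and second of its 3 probe sets), H1f4, H2ac19, H2aw, H2bc18 and H2bc22, and the other was H2aj.

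Some controls of RNA quality differed between arrays and others were nearly flat. For the transferrin receptor control probe sets, the log2 signal at the 5′ end less that at the 3′ end was -2.81, -3.07 and -1.52 in untethered replicates 1, 2 and 3 and -2.09, -1.67 and -1.55 in tethered replicates 1, 2 and 3. For 18S ribosomal RNA, the control at the 5′ end read 12.06, 12.16 and 11.15 on the log2 scale in untethered and 10.94, 10.49 and 10.79 in tethered arrays, so the groups did not overlap. The middle 18S control overlapped between the groups (10.60 to 11.06 in untethered and 10.31 to 10.72 in tethered arrays), and the one at the 3′ end lay between 10.772 and 11.002 on all arrays. The 5′ less 3′ signal of GAPDH lay between -0.06 and 0.095, and that of beta-actin between -0.56 and -0.10. The part of RNA quality in the H1f2 and H2aw values was not tested.

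**Figure D1:**
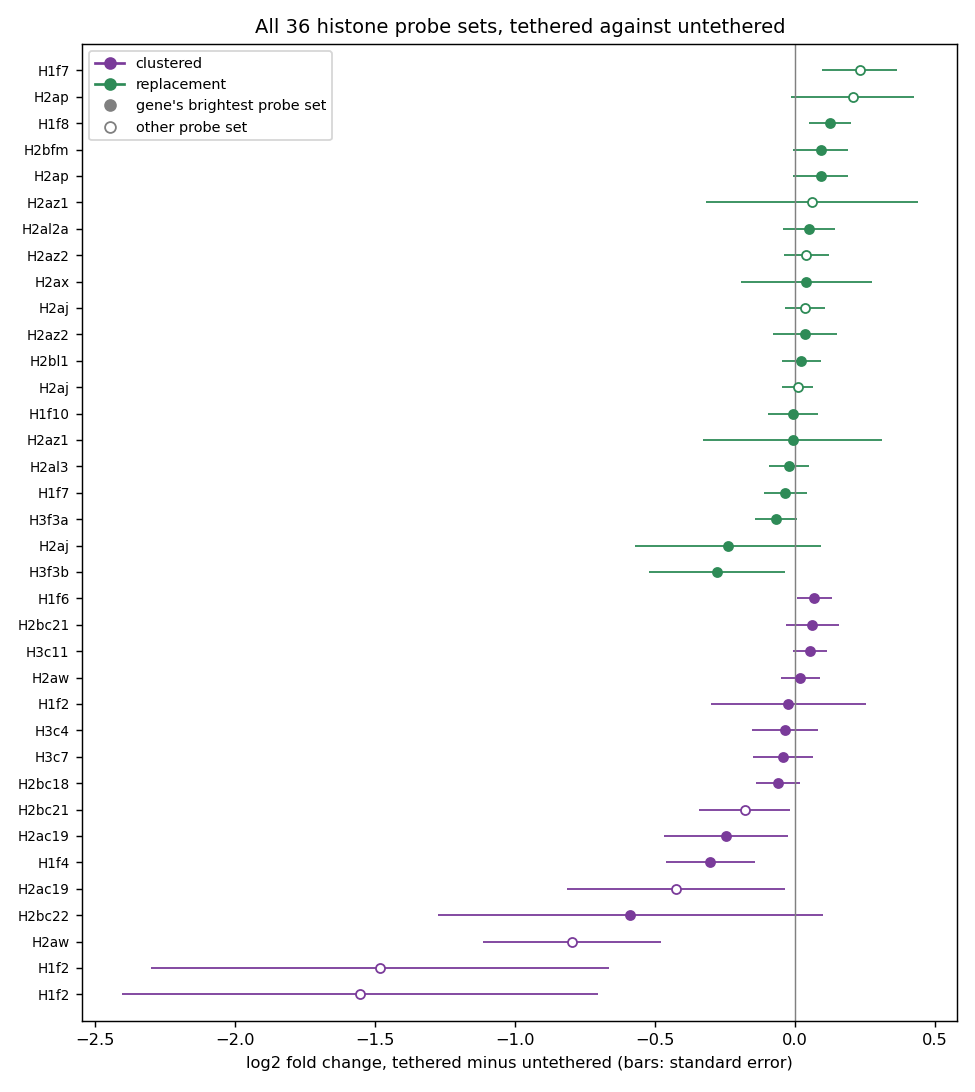
Log2 fold change, tethered minus untethered, of all 36 histone probe sets with its standard error, clustered in purple below and replacement in green above. Filled points are the brightest probe set of a gene by mean log2. The probe sets farthest from 0 are the first and second of H1f2 (-1.48 and -1.55), and the replacement histones lie between -0.28 and 0.23.

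Of the replacement histones within the name patterns, 14 genes had a probe set of their own, 7 of them with known use mainly in germ cells. Values above 0 were found for 13 of 20 probe sets, with a median of 0.04, and for 7 of 14 genes. H2A variants were the brightest. H2aj, an H2A variant that accumulates in senescent cells, read 4135, 7200 and 6754 in untethered and 3212, 5867 and 6506 in tethered arrays on its brightest probe set. The difference was -0.24 (SE 0.33), with the sign turned to 0.08 without tethered replicate 1. Its other probe sets, 496 to 555 and 1134 to 1194 over all arrays, gave 0.04 and 0.01.

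H2az1 and H2az2 encode the H2A.Z proteins, which sit in the nucleosomes that flank start sites. The brighter H2az1 probe set, also of a type that can take up related sequences, read 2031, 4106 and 4496 in untethered and 2918, 3124 and 4051 in tethered arrays. The tethered array was higher for number 1, by 0.52 on the log2 scale, and lower for numbers 2 and 3, by 0.39 and 0.15 in size, so the mean difference was -0.007 (SE 0.32). H2az2 read 2380 to 2846 in untethered and 2391 to 2933 in tethered arrays, a difference of 0.04 (SE 0.11). H2ax, which is phosphorylated beside DNA breaks, gave 0.04 (SE 0.23).

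H3f3a and H3f3b both encode H3.3, which is laid down at active genes and at telomeres. Their own probe sets were dim, at 326 to 382 for H3f3a and 472 to 902 for H3f3b, with differences of -0.07 (SE 0.075) and -0.28 (SE 0.24). H3f3b read 752, 902 and 472 in untethered and 516, 545 and 642 in tethered arrays, lower in the tethered array for numbers 1 and 2 and higher for number 3. Its difference was -0.08 without untethered replicate 2 and -0.54 without untethered replicate 3. The bright H3.3 signal of the array, between 4862 and 12452, lies on 5 probe sets that list 6 symbols each, so no single gene can be named from it. In 3 of the 5 tethered replicate 1 was the lowest array. It read 5067 and 7539 in 2 of them, where the other 5 arrays lay between 7369 and 9077 and between 10789 and 12452, and 5871 in the third, where the others lay between 5913 and 6374. In the first of these the groups did not overlap, with 7716 to 9077 in untethered and 5067 to 7382 in tethered arrays. Its difference was -0.35 (SE 0.16, limma adjusted p = 0.989), and 9.68% of all probe sets had no overlap. The other H3.3 probe sets had overlapping groups, with differences from -0.23 to 0.09. H1f10, which encodes the linker histone H1.10, read 204 to 240 and gave -0.006 (SE 0.088).

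The germ-cell replacement genes H1f7, H1f8, H2al2a, H2al3, H2ap, H2bfm and H2bl1 had 9 probe sets with intensities between 30.5 and 370 on all arrays. Of these 7 lay above 0 and 2 below, from -0.03 to 0.23, with a median of 0.09. None passed the adjusted threshold.

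**Figure D2:**
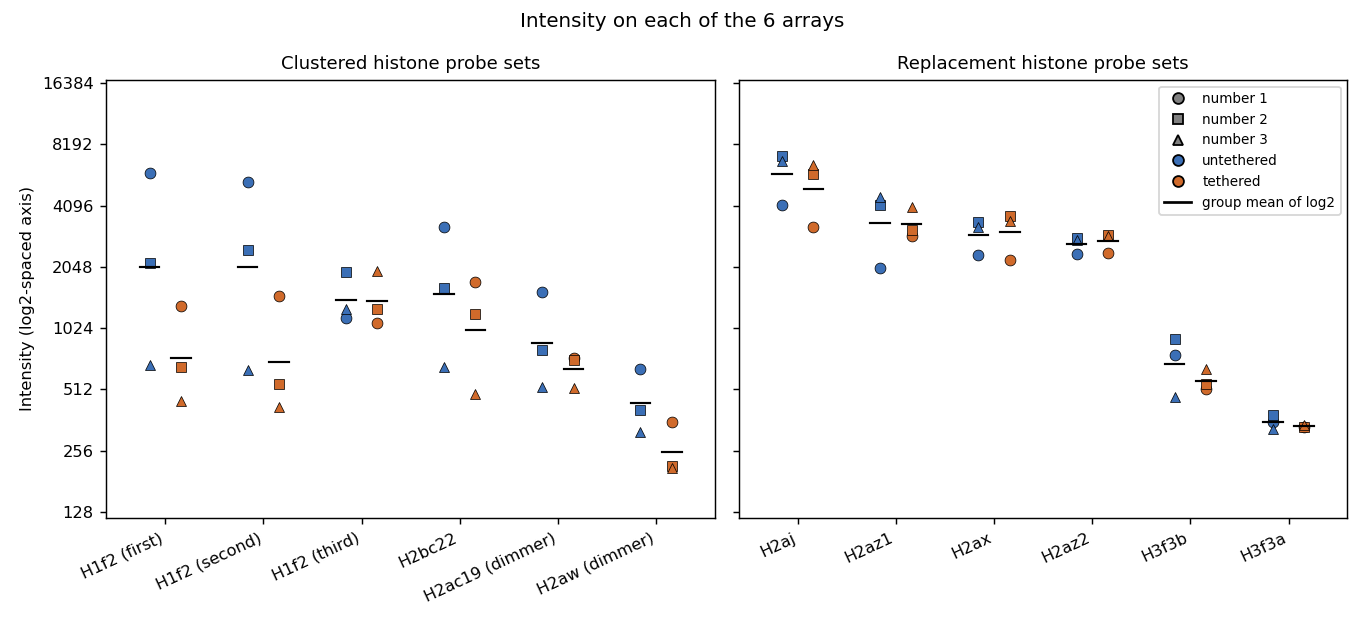
Intensity on each array (log2-spaced axis) of 6 clustered and 6 replacement probe sets, with blue points for untethered and orange for tethered arrays, the shape for the replicate number and a bar for the group mean of log2. In the first H1f2 probe set the untethered values run from 672 to 5891 and the tethered ones from 447 to 1313, and H2aj, H2ax and H2az2 are lowest in both arrays numbered 1.

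The second comparison asked whether arrays with the same number share histone levels, whichever the group. The first and second H1f2 probe sets, H2bc22, H2ac19 and H2aw were highest in the mean of the arrays numbered 1 and lowest in the mean of those numbered 3. The third H1f2 probe set, the brightest by mean log2, was instead lowest in the mean of the arrays numbered 1. Its log2 means were 10.13, 10.61 and 10.63 for numbers 1, 2 and 3 (limma adjusted p = 0.577). Among the H2A variants the brightest probe set of H2aj and the probe sets of H2az1, H2ax and H2az2 were lowest in the mean of the arrays numbered 1. H2bc22 passed the test, and the others named here did not. An F test of the replicate number in limma, with the group as a term, called 1 of 36 histone probe sets, beside 645 of 45037 probe sets (1.43%).

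H2bc22 had log2 means of 11.20, 10.44 and 9.15 for numbers 1, 2 and 3, a span of 4.14-fold (limma adjusted p = 0.028). Both arrays numbered 1 lay above both arrays numbered 2, and these above both numbered 3. The call was lost when any 1 array was left out, with adjusted p from 0.0545 to 0.227, and 0 of 45037 probe sets were then called in each case. It was also lost with a floor of 64 (adjusted p = 0.144) and without both arrays numbered 1 (adjusted p = 0.375).

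H1f2 had the widest spans of all members, 5.07-fold on the first and 5.44-fold on the second probe set, wider than 99.9% and 99.95% of all probe sets. The means of the first were 11.44, 10.22 and 9.10 for numbers 1, 2 and 3, and its adjusted p was 0.114. The dimmer H2ac19 probe set spanned 2.02-fold (adjusted p = 0.281) and the dimmer H2aw probe set 1.86-fold (adjusted p = 0.0583). In all, 5 of 36 histone probe sets spanned at least 2-fold between the numbers, where 2.14% of all probe sets did: the first and second of H1f2, H2bc22, and the dimmer ones of H2ac19 and H2az1. Counted by gene, with the brightest probe set standing for each, it was 1 of 25, H2bc22. The third H1f2 probe set, which stood for H1f2 in this count, spanned 1.41-fold.

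Among the replacement genes the brightest H2aj probe set had means of 11.83, 12.67 and 12.69 for numbers 1, 2 and 3 (limma adjusted p = 0.0527). On it the arrays numbered 1 read 4135 and 3212, and the other 4 lay between 5867 and 7200. The other H2aj probe sets did not share this, with spans of 1.02-fold and 1.09-fold (limma adjusted p = 0.974 and 0.626). H2ax read 2330 and 2216 in the arrays numbered 1 and between 3209 and 3642 in the others (adjusted p = 0.0701). H2az2 read 2380 and 2391 against 2788 to 2933 (adjusted p = 0.232), and the brighter H2az1 probe set 2031 and 2918 against 3124 to 4496 (adjusted p = 0.286). In the other settings tried, the brightest H2aj probe set passed with median centring, with a floor of 1 and with the filter on dim probe sets. The dimmer H2aw probe set passed with median centring and a floor of 1, and H2ax with that filter. The mean of the arrays numbered 1 was the lowest of the 3 for 10 of 36 histone probe sets (40.2% of all probe sets) and the highest for 19 (35.4%). Among the clustered probe sets it was lowest for 2 and highest for 10 of 16, and among the replacement ones lowest for 8 and highest for 9 of 20. At an unadjusted p under 0.05 the F test held 12 of 36 histone probe sets, against 16.4% of all.

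**Figure D3:**
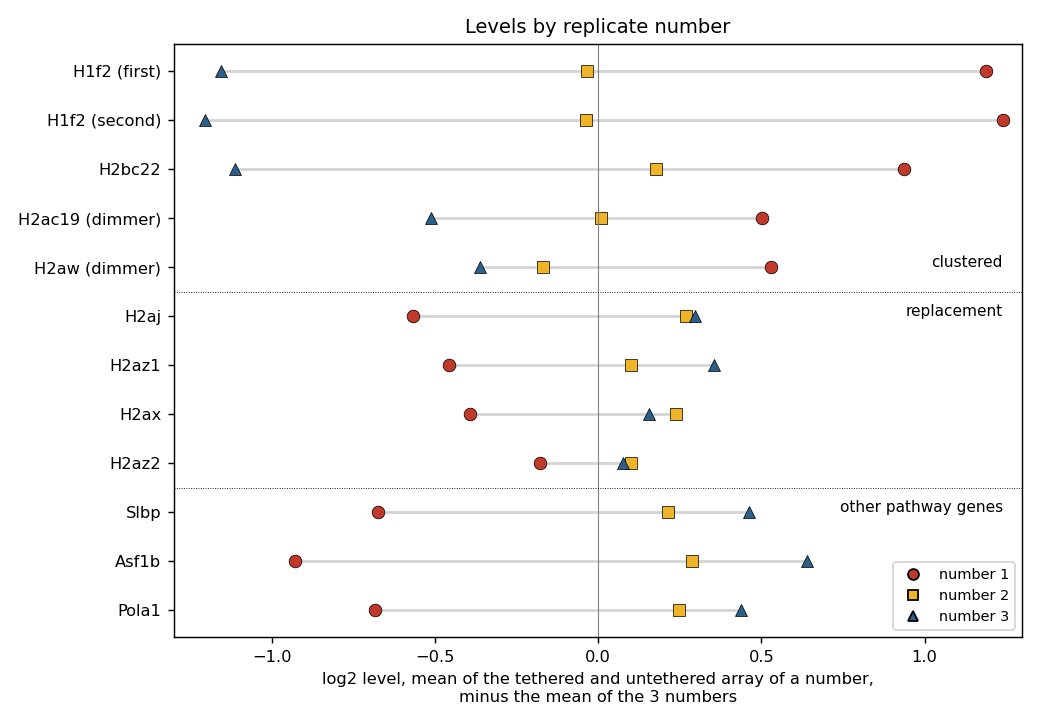
Log2 level for each replicate number, as the mean of its tethered and its untethered array minus the mean of the 3 numbers, for 5 clustered and 4 replacement histone probe sets and for Slbp, Asf1b and Pola1. Number 1 (red circles) lies to the right of numbers 2 and 3 for the clustered probe sets shown and to the left for the replacement and other pathway genes shown. The span is 4.14-fold for H2bc22 and 1.82-fold for the brightest probe set of H2aj. Over all members, number 1 was lowest for 2 and highest for 10 of 16 clustered probe sets, and lowest for 8 and highest for 9 of 20 replacement ones. The third H1f2 probe set, lowest in number 1, is not shown.

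Genes that make, process or carry histones were set beside these values, 32 of the 35 listed with a probe set. Between the groups 0 of 32 passed, 8 lay above and 24 below 0 and the median was -0.07. With 1 array left out it ran from -0.18 (without untethered replicate 1) to 0.02 (without tethered replicate 1). Ubn1, a subunit of the HIRA complex that deposits H3.3, gave -0.20 (SE 0.072), with 1704 to 1845 in untethered and 1482 to 1667 in tethered arrays. It was the 1 gene of 32 whose groups did not overlap, against 9.68% of all probe sets. Hira itself gave 0.02 and Daxx and Atrx, which place H3.3 at telomeres, 0.01 and -0.31 (SE 0.20). Npat, which activates transcription of clustered histone genes, gave -0.05 (SE 0.086). The U7 snRNP subunit Lsm11 gave 0.16 (SE 0.11) and the cleavage factor Cpsf3 -0.18 (SE 0.14).

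By replicate number 6 of the 32 passed (1.43% of all probe sets did), and all 6 were lowest in the arrays numbered 1. Over the list 24 of 32 were lowest in the mean of number 1, against 40.2% of all probe sets. Slbp, which encodes the stem-loop binding protein, read 1547 and 1219 in the arrays numbered 1 and between 2451 and 3081 in the others (limma adjusted p = 0.0474). Asf1b, a chaperone that hands new H3 and H4 to the replication fork, read 1124 and 1109 against 2581 to 3374 (adjusted p = 0.0194). The others called were Nasp and Anp32e, chaperones of H1 or H3 and of H2A.Z, Hat1, which acetylates new H4, and Cenpa, the H3 variant of centromeres. These 4 were named after their values were seen. Chaf1b, a subunit of the chaperone CAF-1, had an adjusted p of 0.0783.

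Of 25 S phase genes with a probe set 0 passed between the groups, with a median of -0.004 that ran from -0.38 (without untethered replicate 1) to 0.21 (without tethered replicate 1) with 1 array left out. By replicate number 15 passed (1.43% of all probe sets did), all lowest in the arrays numbered 1. Pola1, the catalytic subunit of DNA polymerase alpha, read 643 and 576 in the arrays numbered 1 and between 1051 and 1384 in the others (limma adjusted p = 0.0273). Cdt1, a licensing factor, gave -0.42 (SE 0.19) between the groups. Gins2 and Rfc4, which act at the fork, gave 0.08 (SE 0.13) and -0.13 (SE 0.25). Measured from each gene's mean over the 6 arrays, the list's median was -0.62 and -0.71 in the arrays numbered 1 (untethered and tethered) and from 0.17 to 0.50 in the others. The part of the S phase genes in the histone values was not tested, and in bulk RNA fewer cells in S phase and less RNA per cell cannot be told apart. These calls by number were lost as well when any 1 array was left out, since 0 probe sets were then called.

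A further 27 probe sets list several symbols with a histone among them, and no gene is named from them. Of these, 17 list clustered histone genes alone. Between the groups 0 of the 17 passed, as did 0 of all 45037 probe sets, and 12 lay below 0 (51.2% of all probe sets did). A probe set for 13 H4 symbols read 528, 368 and 264 in untethered and 194, 245 and 221 in tethered arrays, with groups that did not overlap and a difference of -0.76 (SE 0.25; limma unadjusted p = 0.0218, adjusted p = 0.989). It was the only 1 of the 17 without overlap, against 9.68% of all probe sets. The other 4 probe sets for 13 H4 symbols had overlapping groups and gave -0.03, -0.14, 0.04 and 0.009, the second of them the brightest at 1164 to 2337.

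By replicate number 3 of the 17 passed (1.43% of all probe sets did), in opposite directions. With a floor of 64 these calls were lost, as 0 of 45037 probe sets were then called. A probe set for 3 H2B symbols read 2777, 1546 and 405 in untethered and 1390, 912 and 248 in tethered arrays (limma adjusted p = 0.0194). Another, for 11 symbols of which 10 are H2B, read 4136, 2017 and 826 in untethered and 2089, 1441 and 591 in tethered arrays (adjusted p = 0.029); its symbols include H2bc22, so it is not independent of that gene. A probe set for 10 H2A symbols was instead lowest in the arrays numbered 1, at 3459 and 4150, with 9826 to 13057 in the others (adjusted p = 0.0204). This H2A probe set and those H2B probe sets thus lay on opposite sides by number, while H2ac19, a clustered H2A gene with its own probe sets, was highest in the mean of the arrays numbered 1.

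**Figure D4:**
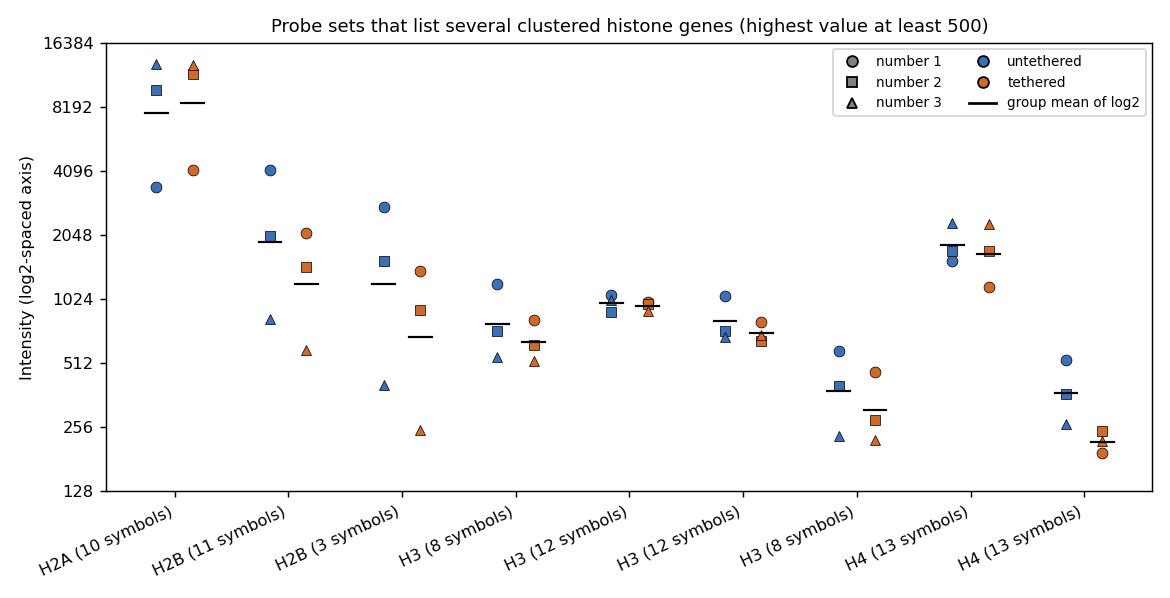
Intensity on each array (log2-spaced axis) of the 9 probe sets that list several clustered histone genes and reach 500 on at least 1 array, labelled by family and number of symbols. The H2A probe set is lowest in the arrays numbered 1 (circles, 3459 and 4150), and the H2B probe set with 11 symbols is highest there (4136 and 2089).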

How the data were processed

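RNA of 3 tethered and 3 untethered samples was hybridised, biotin-labelled, to Affymetrix arrays, per the labels. The authors deposited a table of linear intensities, 1 value for each array and probe set; no source used here says how probes were summarised and scaled. Their medians lay within 482.4 and 490.9, so they were taken as already scaled.

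Gene symbols came from the array's platform annotation. Of 45101, 64 were controls and were left out, and 34945 of the others had 1 symbol. All 25 histone genes were found in the gene table of GRCm38.p6, whose older names put H1f2, H1f4 and H1f6 among the clustered genes. The members and lists were chosen with earlier results of these data known.

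Intensities under 16 were set to 16 and log2 was taken. Groups were compared over all 45037 probe sets with limma 3.58.1 (R 4.3.3), all 6 arrays, no covariate and no filter on signal. Replicate numbers were compared with its F test, group as a term. P-values were adjusted by Benjamini-Hochberg over all probe sets and called under 0.05, two-sided. The procedures were tested on simulated data. The simulated noise was drawn independently for each array, so deviations shared by same-numbered arrays were not covered. The probe set of highest mean log2 over the 6 arrays, called the brightest, stood for a gene in gene counts. The text names the replacement genes in use outside germ cells, the 8 brightest clustered genes, members called or with groups that do not overlap, the 8 members of widest span between numbers, 8 fixed chaperone and processing genes with the 4 of smallest p, and the 4 S phase genes of smallest p. Remaining members are given for completeness. Alternatives were 2 scalings, 2 floors, a filter, an intensity trend, the replicate number as a term, arrays left out and other ways to count a gene's probe sets.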

Additional observations from a re-analysis of the deposited data

How the results depend on the processing

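Between the groups limma called 0 probe sets in every setting run, histone or not. With the replicate block (the number as a term) the count was also 0, with 2812 probe sets at an unadjusted p under 0.05 against 1782 without it. The standard error was then 0.31 for the first H1f2 probe set, 0.086 for the dimmer H2aw one and 0.12 for H2bc22. Without the block it was 0.82, 0.32 and 0.69. The limma adjusted p of each was 0.722 with the block. The standard error of H3f3b stayed at 0.24. The numbers were not taken as pairs, because same-numbered arrays deviated together with correlations of 0.618, 0.072 and 0.6 for numbers 1, 2 and 3, and untethered replicate 2 correlated best with tethered replicate 3 (0.142).

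The test of the number depended on the setting. It called 645 probe sets, 1 of them a histone, 1161 with only probe sets above the median signal (3 histone), 0 with a floor of 64 (0 histone) and 0 without both arrays numbered 1 (0 histone, chosen after seeing the data). Median centring and a floor of 1 gave 3 histone probe sets each. With 1 array left out both counts ran from 0 to 0; each such fit keeps a single residual degree of freedom. The adjusted p of H2bc22 was 0.144 with a floor of 64, 0.375 without both arrays numbered 1 and from 0.0545 to 0.227 with 1 array left out.

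The median over clustered genes was -0.12 with every probe set counted and ran from -0.0603 (without tethered replicate 1) to 0.0485 (without untethered replicate 1) with 1 array left out. That over replacement genes ran from -0.0338 (without untethered replicate 1) to 0.0598 (without tethered replicate 1). The brightest H2aj probe set turned from -0.24 to 0.0765 without tethered replicate 1 and was -0.49 without untethered replicate 1. The causes were not tested. With no detection calls used, dim probe sets such as those of H1f4 and the germ-cell genes may hold little more than background.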
